A study of Schizosaccharomyces pombe with 4 samples.

Results

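Described here are 8 phosphate and thiamine responsive genes of fission yeast (Schizosaccharomyces pombe), chosen by their systematic identifiers, among 5133 genes listed in at least 1 library. They are pho1, pho84, tgp1, pho7, plb1, pho4, nmt1 and thi2, and all 8 were listed in every library and passed the filter on low counts, as did 5076 genes in all. Total RNA of log-phase cells, cultured at 30 °C in the rich medium YEA, was sequenced. There were 2 libraries of Y41F cells, from strains SPBB297 (library 1) and SPBB298 (library 2), and 2 of wild type (WT) cells, both from strain KOR3006. The labels do not name the protein with the substitution, which from knowledge of the study is taken as histone H3 with tyrosine 41 changed to phenylalanine. They give no further genotype, and separate cultures are stated for neither WT library. The p-values therefore reflect the library-to-library spread alone, which within WT could be technical and within Y41F takes in any difference between its strains. Library totals lay between 20845572 and 23616464 expected counts, and edgeR called 1 of the 5076 tested genes, which is not among these 8.

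Fission yeast that runs short of phosphate switches on a secreted acid phosphatase (Pho1), a phosphate importer of the plasma membrane (Pho84) and a transporter of glycerophosphodiesters (Tgp1), which together free phosphate outside the cell and bring it in. The zinc-cluster factor Pho7 binds their promoters. In phosphate-rich medium each of the 3 genes is held down by transcription of a long noncoding RNA that starts upstream and runs across its promoter, a control that depends on RNA 3′ processing and termination and on inositol pyrophosphates. Thiamine acts likewise on another set, as nmt1 ("no message in thiamine"), thi2 and the acid phosphatase gene pho4 are repressed when the vitamin is supplied. The nmt1 promoter is widely used for regulated expression in this yeast.

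None of the 8 genes passed the test between Y41F and WT. edgeR's quasi-likelihood test called 0 of 8 at a Benjamini-Hochberg adjusted p under 0.05, against 0.0197% of all tested genes, and the adjusted p ran between 0.724 for pho84 and 0.994 for pho7. At an unadjusted p under 0.05 it gave 1 of 8, pho84, against 6.7% of all tested genes. DESeq2 called 0 of the 8, against 1.34% of all genes, and gave 3 at an unadjusted p under 0.05 (pho1, pho84 and plb1), against 6.42% of all genes. On log2(FPKM + 1) limma called 0 of the 8, against 0.0591% of all genes, and gave 0 at an unadjusted p under 0.05, against 6.82%. Log2 fold changes, Y41F over WT, were above 0 for 4 genes and below 0 for 4, with a median of -0.07, against a median of 0.00 over all tested genes. On CPM, expected counts brought by TMM to a common library size, the Y41F and WT libraries did not overlap for 4 of the 8, against 37.2% of all genes. The nonoverlapping genes were 2 higher in Y41F (plb1 and nmt1), against 19.2% of all genes, and 2 lower (pho84 and tgp1), against 18% of all genes. With 2 libraries a group, an exact permutation test of a single gene cannot go below p = 0.333 (two-sided).

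**Figure D1:**
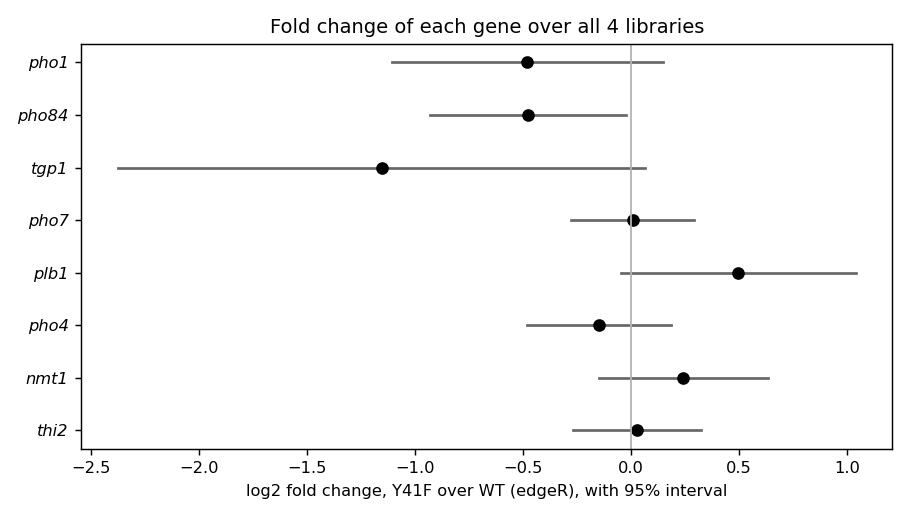
Points are the log2 fold change of each gene, Y41F over WT, from edgeR over 2 Y41F and 2 WT libraries, and lines are its 95% interval. The intervals of all genes but pho84 include 0, and that of tgp1 is the widest, between -2.38 and 0.07.

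The 3 phosphate acquisition genes had the lowest fold changes, and in each the value rested on WT library 2. The glycerophosphodiester transporter gene tgp1 (SPBC1271.09, chromosome II) had 469 and 530 expected counts in Y41F libraries 1 and 2, against 500 and 1496 in WT libraries 1 and 2. That is 12.0 and 14.0 FPKM (fragments per kilobase of gene, scaled to library depth) in Y41F, against 13.5 and 43.3 FPKM in WT. WT library 2 stood alone, and the other 3 libraries lay close together. On CPM the groups just failed to overlap, with 19.6 and 22.8 in Y41F against 23.4 and 71.1 in WT, while on FPKM they overlapped. The log2 fold change of tgp1 was -1.15 ± 0.49 (SE; 95% interval -2.38 to 0.07; edgeR adjusted p = 0.764). Leaving out WT library 2 gave -0.14, and leaving out WT library 1 gave -1.74 (edgeR adjusted p = 0.907 and 0.293).

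The phosphate importer gene pho84 (SPBC8E4.01c, chromosome II) had 8478 and 7480 expected counts in the Y41F libraries, against 8273 and 11669 in the WT libraries. This gave 205 and 188 FPKM in Y41F, against 212 and 320 in WT. The groups did not overlap, but WT library 1 lay nearer to the Y41F libraries than to WT library 2. Its log2 fold change was -0.48 ± 0.18 (SE; 95% interval -0.93 to -0.02; edgeR adjusted p = 0.724), or -0.20 without WT library 2 and -0.71 without WT library 1. Its expected counts are not whole numbers, so some of its reads were divided with another gene. In every library they summed with those of the phosphate transporter gene pho841 to a whole number (tolerance 0.015), as did those of no other of the 162 genes with fractional counts in every library, so reads were shared by this pair and the level of each depends on how they were divided. Together pho84 and pho841 had 609 and 484 CPM in the Y41F libraries, against 524 and 838 CPM in the WT libraries, and so summed the groups overlapped.

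The acid phosphatase gene pho1 (SPBP4G3.02), the next coding gene to pho84 on chromosome II, had 18229 and 16506 expected counts in the Y41F libraries, against 16117 and 27345 in the WT libraries. Levels were 560 and 526 FPKM in Y41F, against 525 and 953 in WT. The groups overlapped, and WT library 2 was again the high one. The log2 fold change was -0.48 ± 0.25 (SE; 95% interval -1.11 to 0.15; edgeR adjusted p = 0.797), and without WT library 2 it was -0.04, against -0.82 without WT library 1. The Y41F mean was 0.975 times WT library 1 and 0.567 times WT library 2.

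**Figure D2:**
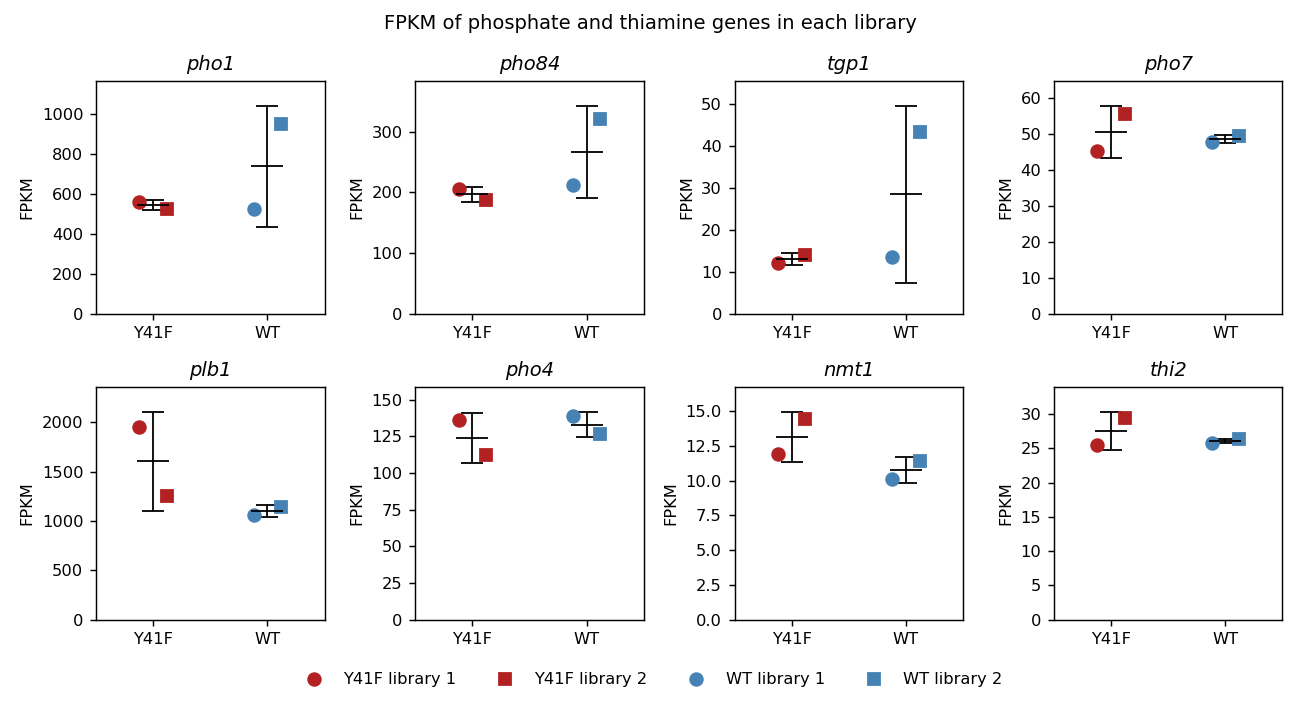
Each panel gives the FPKM of 1 gene in the 2 Y41F libraries (left) and the 2 WT libraries (right), with the mean and SD of each group in black and each axis from 0. WT library 2 is apart from the other 3 libraries for pho1 (953 FPKM), pho84 (320 FPKM) and tgp1 (43.3 FPKM), and Y41F library 1 for plb1 (1957 FPKM).

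Within WT, library 2 exceeded library 1 by 3.03 times for tgp1, 1.72 times for pho1 and 1.43 times for pho84 on CPM. Of 5071 genes with counts in both WT libraries, ordered by this ratio, tgp1 came at place 38, pho1 at 112 and pho84 at 193. Between Y41F libraries the same ratio was 1.17 for tgp1, 0.934 for pho1 and 0.911 for pho84. Thus, with the reads of pho84 divided as deposited, the 3 genes stood high together in 1 WT library and in neither Y41F library. Summed with pho841, pho84 had 609 and 484 CPM in the Y41F libraries, against 524 and 838 CPM in the WT libraries. Against WT library 1 alone, the Y41F mean was 0.906 for tgp1 and 0.873 for pho84. Stress markers were high in WT library 2 and in Y41F library 2. The 8 stress and stationary phase markers summed to 2436 and 4200 CPM in Y41F libraries 1 and 2, against 2249 and 3611 CPM in WT libraries 1 and 2. Their part in the phosphate gene values was not tested.

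**Figure D3:**
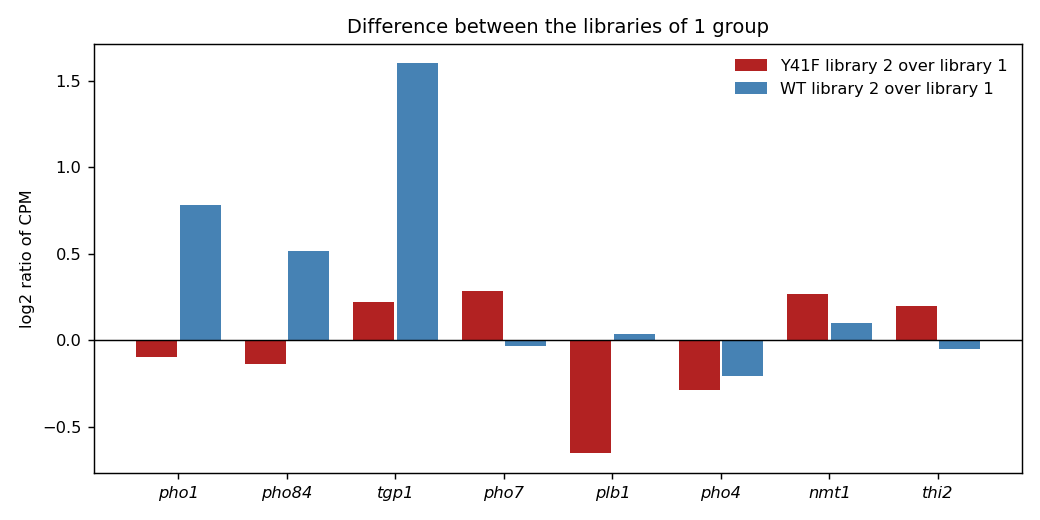
Bars are the log2 ratio of CPM of library 2 over library 1, within Y41F (red) and within WT (blue), for each gene. The WT bars of pho1 (0.78), pho84 (0.52) and tgp1 (1.60) and the Y41F bar of plb1 (-0.65) are the longest.

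With the reads of pho84 divided as deposited, the ratios between these genes differed less for pho1 and pho84 than for tgp1. By FPKM, pho1 was 2.73 and 2.80 times pho84 in Y41F libraries 1 and 2, against 2.47 and 2.97 times in WT libraries 1 and 2. It was 46.8 and 37.5 times tgp1 in the Y41F libraries, against 38.8 and 22.0 times in the WT libraries. The low ratio to tgp1 belongs to WT library 2, where tgp1 was furthest above its other values.

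The annotation places the noncoding RNA gene nc-pho1 (synonym prt) between pho84 and pho1, and nc-tgp1 near tgp1. Neither is among the gene identifiers of the tables used, so neither was analysed here. The coding neighbours on the other sides of the pair were nearly silent. The gene fub2, for a PI31-type proteasome regulator, had 1.29 and 2.46 CPM in Y41F, against 0.515 and 0.855 in WT (log2 fold change 1.45 ± 0.52, edgeR adjusted p = 0.710). The gene ecl3, named for extended chronological lifespan, had 1.92 and 1.77 CPM in Y41F, against 0.937 and 2.47 in WT. The neighbours of tgp1 were SPBC1271.10c, annotated as a transporter, at 28.4 and 49.1 CPM in Y41F against 41.7 and 43.7 in WT, and the uncharacterised gene SPBC1271.08c at 20.8 and 17.8 CPM in Y41F against 17.8 and 13.4 in WT. None of these neighbours passed the test, and those of tgp1 did not have its high value in WT library 2.

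The transcription factor gene pho7 (SPBC27B12.11c, chromosome II) differed little among libraries. It had 2430 and 2874 expected counts in the Y41F libraries, against 2419 and 2335 in the WT libraries. In FPKM these were 45.4 and 55.7 in Y41F, against 47.9 and 49.5 in WT, so the groups overlapped. WT library 2, where the 3 acquisition genes were high, had 0.978 times the pho7 CPM of WT library 1. Its change on the log2 scale was 0.01 ± 0.11 (SE; edgeR adjusted p = 0.994), and its 95% interval corresponds to a change of between 0.825 and 1.22 times.

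The phospholipase gene plb1 (SPAC1A6.04c, chromosome I), whose product belongs to the phospholipase B family that removes acyl chains from phospholipids, had the highest fold change of the 8, and this rested on Y41F library 1. It had 86750 and 53422 expected counts in Y41F libraries 1 and 2, against 44279 and 44784 in the WT libraries. Per length this was 1957 and 1251 FPKM in Y41F, against 1060 and 1146 in WT. The groups did not overlap, with Y41F library 1 far above the other 3. For plb1 the log2 fold change was 0.50 ± 0.22 (SE; 95% interval -0.05 to 1.04; edgeR adjusted p = 0.766). Without Y41F library 1 it was 0.14 (edgeR adjusted p = 0.982). Without Y41F library 2 it was 0.79 and passed the threshold (edgeR adjusted p = 0.0341), in a fit that called 3.88% of all tested genes and assumes that the lone Y41F library varies like the WT ones. In that fit plb1 was the 1 gene of the 8 called.

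**Figure D4:**
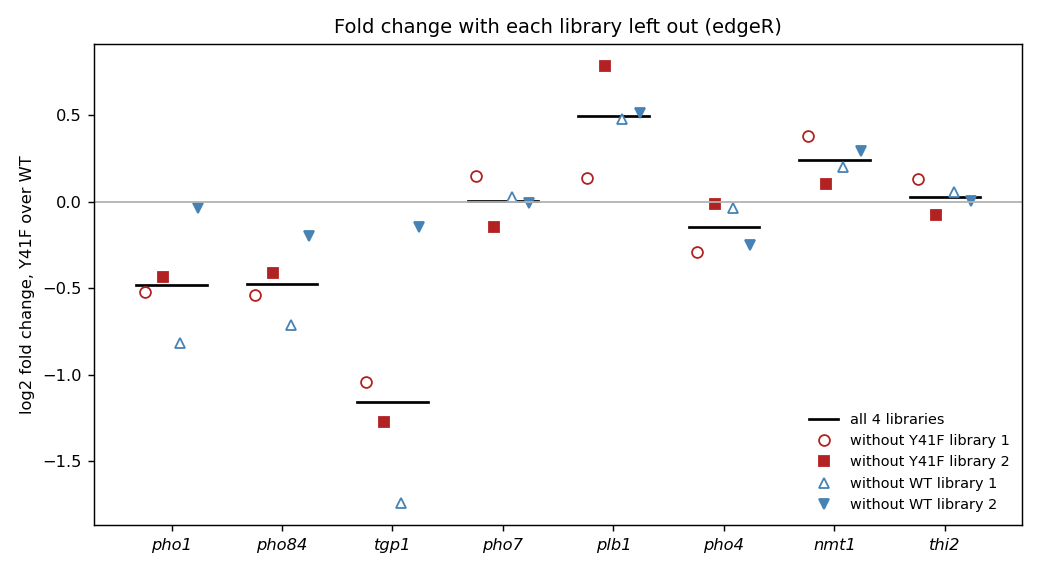
Black lines are the log2 fold change of each gene, Y41F over WT, with all 4 libraries, and symbols are the value with 1 library left out (red, a Y41F library; blue, a WT library). The values of pho1, pho84 and tgp1 move towards 0 without WT library 2, and that of plb1 moves to 0.14 without Y41F library 1.

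The other 5 genes of the phospholipase B list did not pass the test. The list had 6 genes tested, with 0 called by edgeR and DESeq2, against 0.0197% and 1.34% of all genes. At an unadjusted p under 0.05, edgeR gave 0, against 6.7% of all genes, and DESeq2 gave 1, plb1, against 6.42%. Log2 fold changes were above 0 for 3 and below 0 for 3, with a median of -0.01. The split rested on single libraries, as without WT library 2 it was 6 above and 0 below (median 0.18), and without WT library 1 it was 2 and 4 (median -0.13), as without Y41F library 2 (median -0.13). The gene plb2 had 595 and 414 CPM in Y41F libraries 1 and 2, against 407 and 430 in WT, so it too was high in Y41F library 1, with a log2 fold change of 0.27 ± 0.18. The gene plb3 had 399 and 585 CPM in Y41F, against 392 and 554 in WT, so library 2 was the higher in both groups. The gene plb5 had the lowest fold change, -0.29 ± 0.22, with 28.5 and 33.2 CPM in Y41F against 29.6 and 46.0 in WT. The genes plb4 and SPBC1348.10c had identical counts and are 1 measurement, at -0.07 ± 0.11. The splits and medians of the list count this measurement under both names, so they are not those of separate measurements. The coding neighbours of plb1 were the uncharacterised gene SPAC1A6.11, under 1 CPM in every library, and the lipase gene ptl3, at 85.0 and 87.6 CPM in Y41F against 87.0 and 88.9 in WT.

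The 3 thiamine-repressible genes differed little between Y41F and WT. The gene nmt1 (SPCC1223.02, chromosome III), for the enzyme that makes the pyrimidine part of thiamine, had 293 and 342 expected counts in the Y41F libraries, against 235 and 248 in the WT libraries. Its levels were 11.9 and 14.4 FPKM in Y41F, against 10.1 and 11.4 in WT. Both Y41F libraries lay above both WT libraries, by little. The log2 fold change of nmt1 was 0.24 ± 0.16 (SE; 95% interval -0.15 to 0.64; edgeR adjusted p = 0.819), and it was between 0.10 and 0.38 with each library left out in turn.

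The gene thi2 (SPBC26H8.01, chromosome II), for the enzyme that makes the thiazole part, had 595 and 662 expected counts in the Y41F libraries, against 568 and 541 in the WT libraries. In FPKM these were 25.5 and 29.4 in Y41F, against 25.8 and 26.3 in WT, and the groups overlapped. Its log2 fold change was 0.03 ± 0.12 (SE; edgeR adjusted p = 0.971), with a 95% interval of between 0.831 and 1.25 times. The thiamine-repressible acid phosphatase gene pho4 (SPBC428.03c, chromosome II) had 4533 and 3594 expected counts in the Y41F libraries, against 4362 and 3725 in the WT libraries. In FPKM these were 136 and 112 in Y41F, against 139 and 127 in WT, so library 1 was the higher in both groups and the groups overlapped. The log2 fold change of pho4 was -0.15 ± 0.13 (SE; 95% interval -0.48 to 0.18; edgeR adjusted p = 0.866).

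Of the coding neighbours of the thiamine genes, gut2, for a glycerol-3-phosphate dehydrogenase, lies beside nmt1 and had 222 and 188 CPM in Y41F against 135 and 150 in WT. Its groups did not overlap and its log2 fold change was 0.53 ± 0.12 (edgeR adjusted p = 0.371), so it missed the threshold too. On the other side of nmt1, hel2, for a ubiquitin ligase, had 182 and 204 CPM in Y41F against 237 and 214 in WT. The neighbours of thi2, tda1 and sec9, had log2 fold changes of -0.08 ± 0.09 and -0.06 ± 0.13. Those of pho4 were eca39 at -0.10 ± 0.13 and apq12 at 0.22 ± 0.13, and those of pho7 were tom7 at 0.08 ± 0.12 and cbp4 at 0.07 ± 0.12.

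Compared per length, the 8 genes covered a wide range of levels. By mean FPKM the order in Y41F was plb1 (1604 ± 500), pho1 (543 ± 23.9), pho84 (197 ± 12.3), pho4 (124 ± 17.1), pho7 (50.6 ± 7.30), thi2 (27.5 ± 2.79), nmt1 (13.1 ± 1.77) and tgp1 (13.0 ± 1.46), each ± SD with n = 2. In WT the order was plb1 (1103 ± 60.7), pho1 (739 ± 302), pho84 (266 ± 76.2), pho4 (133 ± 8.58), pho7 (48.7 ± 1.07), tgp1 (28.4 ± 21.04), thi2 (26.05 ± 0.332) and nmt1 (10.8 ± 0.912). In Y41F, nmt1 and tgp1 changed places between the libraries. Within each WT library tgp1, at 13.5 and 43.3 FPKM, was below pho7 and above nmt1. It was below thi2 in WT library 1 and above it in WT library 2, so its place by mean rested on WT library 2. The upper 5 kept their order in all 4 libraries, and plb1 and pho1 came nearest in WT library 2, where plb1 was 1.20 times pho1. The gene pho1 took 0.0772% and 0.0725% of all counts in Y41F libraries 1 and 2, against 0.0724% and 0.131% in the WT libraries, and by FPKM it held place 288 and 298 of the listed genes in the Y41F libraries, against 305 and 187 in the WT libraries. The gene nmt1 was at place 4733 and 4682 in Y41F libraries 1 and 2, against 4734 and 4742 in WT. It was thus among the low genes in every library, though not at 0.

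Of 15 list entries for phosphate uptake, storage and release, 14 were matched and tested. By edgeR and DESeq2, 0 were called, against 0.0197% and 1.34% of all genes. At an unadjusted p under 0.05 edgeR gave 1 of 14, against 6.7% of all genes, and DESeq2 gave 3 of 14 (pho1, pho84 and plb1, all members), against 6.42% of all genes. Fold changes were above 0 for 3 and below 0 for 11, with a median of -0.11, against 2471 above and 2605 below 0 over all genes. When libraries were scaled by size alone, the split was 6 and 8, as it was without WT library 2, where the median was -0.03. Besides the 4 members in the list, the transporter gene pho842 had 166 and 213 CPM in Y41F against 215 and 261 in WT (log2 fold change -0.33 ± 0.16). The transporter gene pho841 had 255 and 161 CPM in Y41F against 136 and 284 in WT (-0.01 ± 0.38), high in Y41F library 1 and in WT library 2. Polyphosphate is made and stored by the vacuolar VTC complex, whose genes vtc4, nrf1 and vtc2 had 0.16 ± 0.11, 0.10 ± 0.10 and -0.01 ± 0.10. The alkaline phosphatase gene pho8 had -0.15 ± 0.09, the glycerophosphodiesterase gene gde1 -0.03 ± 0.11 and SPBC21H7.03c, for an inositol polyphosphate phosphatase, -0.15 ± 0.10. The entry ppa1 (-0.15 ± 0.09) matched a protein phosphatase subunit and not a phosphate metabolism enzyme, and without it the list's median was -0.07.

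Regulators of the phosphate genes lay close to 0. All 20 entries were tested, and their log2 fold changes lay between -0.17 and 0.12, with a median of -0.03. By edgeR and DESeq2, 0 were called, against 0.0197% and 1.34% of all genes. At an unadjusted p under 0.05 each gave 0, against 6.7% and 6.42% of all genes. Values were above 0 for 8 and below 0 for 12, or, with scaling by library size alone, for 12 and 8. The kinase gene csk1, linked to pho1 control by genetic screens, had -0.04 ± 0.10. The inositol pyrophosphate kinase gene asp1 had 0.06 ± 0.14, and the genes aps1 and siw14, for enzymes that break inositol pyrophosphates down, had 0.12 ± 0.10 and 0.05 ± 0.11. The termination genes seb1, rhn1 and ssu72 had -0.10 ± 0.13, 0.00 ± 0.09 and -0.09 ± 0.11, and dhp1, for the nuclear exonuclease, was the lowest at -0.17 ± 0.12. The RNA elimination genes mmi1, erh1 and red1 had -0.12 ± 0.10, -0.02 ± 0.10 and -0.04 ± 0.08, and the most abundant members with seb1 were dis2 and dhp1, with 228 and 194 CPM for dis2 in Y41F against 223 and 222 in WT. The ubiquitin ligase gene pqr1, which the list also holds under its synonym spx1, had 121 and 204 CPM in Y41F against 143 and 198 in WT, so library 2 was the higher in both groups.

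All 11 entries of the thiamine synthesis and uptake list, which also holds the acid phosphatase gene pho4, were tested. By edgeR and DESeq2, 0 were called, against 0.0197% and 1.34% of all genes. At an unadjusted p under 0.05 each gave 0, against 6.7% and 6.42% of all genes. Fold changes lay above 0 for 8 and below 0 for 3, with a median of 0.04. Without Y41F library 1 the split was 5 above and 6 below (median -0.01) and without WT library 2 it was 6 and 5 (median 0.00), while without WT library 1 the median was 0.12 and without Y41F library 2 it was 0.08. The pyrimidine kinase genes thi201 and thi20 stood at the ends of the list, at 0.29 ± 0.19 and -0.18 ± 0.09. For thi201 the Y41F libraries had 112 and 77.2 CPM, against 82.6 and 71.9 in WT, so its value rested on Y41F library 1. Its log2 fold change was 0.54 without Y41F library 2 and 0.01 without Y41F library 1. The vitamin importer gene bsu1 had 21.1 and 17.4 CPM in Y41F against 16.9 and 15.3 in WT (0.26 ± 0.14). The bifunctional synthesis gene thi4 had 121 and 89.9 CPM in Y41F against 105 and 88.6 in WT (0.13 ± 0.17). The thiamine transporter gene thi9, the diphosphokinase gene tnr3 and SPCC18B5.05c had 0.03 ± 0.11, -0.13 ± 0.09 and 0.04 ± 0.11, and SPBC530.07c, of the TENA/THI family, had 0.24 ± 0.24. The transcription factor genes thi1 and thi5, which activate thiamine genes, had -0.04 ± 0.10 and 0.12 ± 0.10. Neither was called by edgeR or DESeq2, and neither had an unadjusted p under 0.05, against the same shares of all genes.

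**Figure D5:**
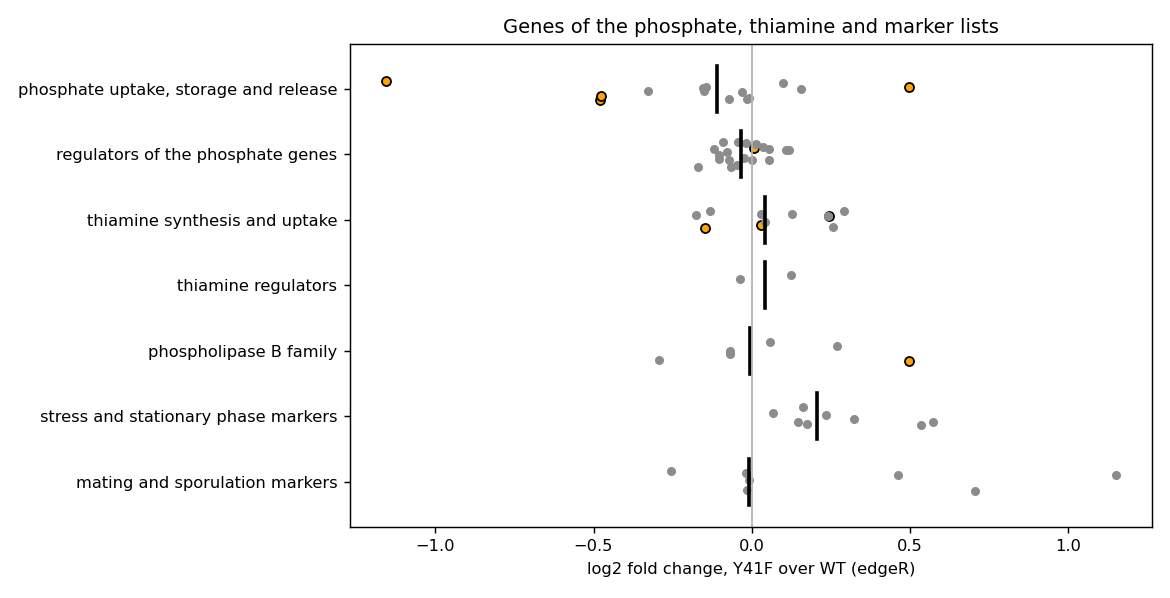
Each point is the log2 fold change of 1 gene, Y41F over WT, by list, with the genes described here in orange and the list median as a black bar; vertical scatter has no meaning. The regulators of the phosphate genes lie between -0.17 and 0.12, while the phosphate uptake, storage and release list reaches from -1.15 (tgp1) to 0.50 (plb1).

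On log2(FPKM + 1) limma called no gene of any list, against 0.0591% of all genes. Marker genes were used to look at the growth state of the cultures. The 8 stress and stationary phase markers had 0 called by edgeR and DESeq2, against 0.0197% and 1.34% of all genes. At an unadjusted p under 0.05 each gave 1, the trehalase gene ntp1 (0.32 ± 0.12), against 6.7% and 6.42% of all genes. The median log2 fold change of these markers was 0.21, with all 8 above 0 when all 4 libraries were used. Without WT library 1 or without Y41F library 2, 2 lay above and 6 below 0. The heat shock gene hsp9 had 96.9 and 227 CPM in Y41F libraries 1 and 2, against 52.6 and 165 in WT libraries 1 and 2, and the gluconeogenesis gene fbp1 had 20.4 and 124 CPM in Y41F, against 14.8 and 85.0 in WT. The most abundant of these markers, rds1 and gpd1, had log2 fold changes of 0.18 ± 0.57 and 0.07 ± 0.13. All 8 markers were higher in library 2 than in library 1 of both groups. With the library number as a block, edgeR called hsp9 and fbp1 (log2 fold change 0.66 and 0.51, adjusted p = 0.0327 and 0.0403), 2 of the 8, against 1.71% of all genes, although no label ties libraries of the same number together. Mating and sporulation markers had 7 tested and 0 called by edgeR, against 0.0197% of all genes. DESeq2 called 1 of them, against 1.34% of all genes. At an unadjusted p under 0.05 each gave 2, ste11 and meu10, against 6.7% and 6.42% of all genes. Their median was -0.01, with 3 above and 4 below 0. The split was 6 above and 1 below when scaled by library size alone or without Y41F library 1 (median 0.12 without that library). The mating regulator gene ste11 had 84.7 and 40.2 CPM in Y41F, against 26.8 and 29.5 in WT (1.15 ± 0.34, edgeR adjusted p = 0.556), and DESeq2 called it (adjusted p = 0.0395). Its high library, Y41F library 1, is also that of plb1 and thi201, and its part in their values was not tested.

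The genes whose pattern over the 4 libraries was most like that of each member were found by the root-mean-square distance of log2(CPM + 1) centred on its mean, among genes of at least 5 CPM. With 4 libraries this only describes which genes shared the same high or low libraries. The pattern of pho84 depends on how its reads were divided with pho841. For pho1 the nearest gene was pho84, at a distance of 0.10, and for pho84 it was pho1. After them came nrg1 and pil2 for pho1, at 0.13 and 0.14, and mde7 and hsr1 for pho84, at 0.11 and 0.12. The nearest to tgp1 was pfl8, with 51.3 and 50.6 CPM in Y41F against 65.4 and 146 in WT, at a distance of 0.17, so WT library 2 was its high library too. For tgp1 the next were atf21 and tms1, at 0.27 and 0.30. For plb1 the nearest was fhn1, with 122 and 80.4 CPM in Y41F against 69.3 and 75.9 in WT, at 0.04, followed by csx1 and SPCC162.02c. The remaining members varied so little that very near genes were found for each, at distances between 0.00399 and 0.0202, such as the ribosomal protein gene rps2201 for pho4, dlc2 for nmt1, pgk1 for thi2 and hip4 for pho7.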

How the data were processed

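Per the file headers, each of the 4 deposited gene tables gives an expected count and an FPKM value per gene, with a gene length that is always a multiple of 3 (a coding length). Per the submitters' processing notes, RSEM, Bowtie and BWA and the build ASM294v2 were used; roles, versions and strand use are not given in the sources used here. The deposited expected counts were rounded, and a gene missing from a library was taken as 0. Names and gene order came from the ASM294v3 annotation (5100 of 5133 identifiers matched); as the builds differ, no coordinates or sequences are given.

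edgeR 4.0.16 (R 4.3.3; quasi-likelihood test, TMM, default filter, which removed 57 genes) was fitted to all 4 libraries without covariates, with Benjamini-Hochberg adjustment over 5076 genes. The fits were also run on simulated counts drawn without any effect of library number, which does not test how they behave on these libraries. DESeq2 1.42.0, limma 3.58.1 on log2 of the deposited FPKM plus 1 or 5, other scalings and filters, and each library left out were alternatives. SE and 95% intervals were derived from edgeR's F statistics. FPKM fold changes on the log2(value + pseudocount) scale understate low genes.

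Members, lists and tests were chosen with earlier results of these data known, and no set test was run. Named genes were the 8 members, their coding neighbours and genes among the 3 nearest in pattern to each. From each list came extreme, most abundant and lowest-p genes, but not all of these are named (duf89 of the regulators is not). Other list members were added after their values were seen.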

Additional observations from a re-analysis of the deposited data

How the results depend on the processing

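The count of called genes over all 5076 was 1 with edgeR, 68 with DESeq2 and 3 with limma on log2(FPKM + 1), and with 1 library left out it was between 0 (without either WT library) and 197 (without Y41F library 2), with 65 without Y41F library 1. None of the 8 genes was called under any of the 8 alternatives that kept all 4 libraries, and none changed direction there. Over the 4 fits that leave 1 library out, log2 fold changes ran from -0.82 to -0.04 for pho1, -0.71 to -0.20 for pho84, -1.74 to -0.14 for tgp1, -0.14 to 0.15 for pho7, 0.14 to 0.79 for plb1, -0.29 to -0.01 for pho4, 0.10 to 0.38 for nmt1 and -0.07 to 0.13 for thi2. Signs reversed for pho7 without WT library 2 (-0.01) or Y41F library 2 (-0.14) and for thi2 without Y41F library 2 (-0.074), with edgeR adjusted p between 0.726 and 0.992. The call of plb1 without Y41F library 2 gives 1 called gene in the phosphate uptake list and 1 in the phospholipase B list, that of thi201 gives 1 in the thiamine list and that of ste11 gives 1 in the mating list, where DESeq2 also called 1. The cause of these calls was not tested. Scaling by library size alone moved the median of all genes by 0.046, the most of any alternative.

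Library numbers are shared between groups, but nothing ties library 1 of Y41F to library 1 of WT. The deviations of same-numbered libraries from their group means correlated at 0.45 across genes. With the replicate number as a block edgeR called 87 genes (1.71%), among them 2 of the stress markers, hsp9 and fbp1. It called none of the 8 (adjusted p = 0.250 for plb1, 0.190 for tgp1). At an unadjusted p under 0.05 it gave 4 of the 8 (pho1, pho84, plb1 and tgp1). The share of all genes at that threshold was not counted, so this number cannot be judged. Over all genes the blocked fit called more than the fit without a block, which called 1. Depth limits the low genes: Poisson counting error alone was up to 5.84% of the nmt1 count in a Y41F library and 6.52% in a WT library, against an SD of CPM of 13.1% of the mean in Y41F and 4.76% in WT. For plb1 it was at most 0.433% in Y41F and 0.475% in WT.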
